A study of Mus musculus with 6 samples.

Results

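Gene expression in pancreatic islets of mice that carry floxed Trsp and a Cre recombinase driven by the rat insulin promoter (RIP-Cre) was compared with that in islets of floxed mice without Cre. The comparison rests on 4 of the 6 arrays of the series, 2 per group, each labelled as pancreatic islets of 16 weeks old male mice on an ICR background. The control group, TrspFF, has the genotype TrspFlox/Flox, and the knockout group, Trsp-RIPKO, has the genotype TrspFlox/Flox::RIP-Cre. No probe for Trsp itself was used, so its loss was not checked on the arrays. The remaining 2 arrays are Trsp-Ins1KO, TrspFlox/Flox::Ins1-Cre. They enter the fit of every gene, so they help set each SE and adjusted p. Their levels also count in choosing the brightest probe of each gene, and are otherwise used only where the 2 Cre lines are compared. Both alleles of Trsp are floxed in all 3 groups, and no group with Cre and without floxed Trsp is among the samples, so the effect of the transgene and that of losing Trsp cannot be told apart. Members were the genes with a probe well above background on both arrays of at least 1 group: 18949 genes, of 19021 that the same rule gives over all 3 groups. Of these, 17634 were above background on all 4 arrays, 861 entered through the Trsp-RIPKO arrays and 454 through the TrspFF arrays.

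Trsp encodes the transfer RNA that inserts selenocysteine, and selenoproteins such as glutathione peroxidases and thioredoxin reductases cannot be made in full without it. Several of them reduce hydrogen peroxide or lipid peroxides, and messenger RNAs of some selenoproteins are degraded when selenocysteine is scarce. Beta cells make insulin and have low levels of several antioxidant enzymes. RIP-Cre is known to recombine in some hypothalamic neurons as well as in beta cells, and islets also hold cells that do not express insulin. In a whole-islet sample, fewer cells of a type and less RNA per cell cannot be told apart.

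Total RNA was labelled with Cy3 and hybridised to single-colour arrays. Each level below is the log2 of an array's processed signal minus the log2 of that array's 75th percentile, so 0 is the 75th percentile, and each difference is Trsp-RIPKO minus TrspFF on that scale. A gene was called at an adjusted p under 0.05 (limma, Benjamini-Hochberg over all genes tested), and a call is said to hold where it was also made in the same direction in each of 4 fits that left out 1 of the 4 arrays. Where it did not hold, the arrays that ended it are named with the highest adjusted p. Whether replicate arrays stand for different mice is not given in the labels, so the p-values describe how far these samples vary, and that variation could be technical alone. The arrays had 57.48% to 61.04% of probes well above background and no saturated spot. Both Trsp-RIPKO arrays lay on a slide of their own, so slide and group cannot be told apart, and the scanner software marked both as Evaluate and the TrspFF arrays as InRange. The authors' deposited value table carries the 2 other groups under each other's names: its TrspFF columns follow the Trsp-Ins1KO scanner files, with r = 1 across genes, so groups were taken from the scanner files. The files do not settle which naming is right, and under the table's own names 41 of 128 named genes change sign.

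The islet labels were matched by their defining markers. Insulin genes stood far above the 75th percentile, with Ins1 at 10.24 and 10.48 on the TrspFF arrays and 10.55 and 10.70 on the Trsp-RIPKO arrays. Among the sex-linked genes, the Xist signal of these 4 arrays went against their label as male, while the Y-linked genes tested were above background on all 4. Xist, which coats and silences the inactive X chromosome of female cells, read -0.56 and -0.32 in TrspFF and 1.05 and 1.34 in Trsp-RIPKO, a rise of 1.63 ± 0.145 (SE, adjusted p = 0.00452). It read 6.89 lower in Trsp-Ins1KO than in Trsp-RIPKO. The Y-linked helicase gene Ddx3y read 0.96 and 0.78 in TrspFF and -0.53 and -0.44 in Trsp-RIPKO. Eif2s3y read 1.53 and 1.41 against 0.37 and 0.32, and Kdm5d and Uty each differed by -0.84, calls that were lost without any 1 of the 4 arrays (adjusted p up to 0.167 for Kdm5d and 0.0769 for Uty). A second Uty probe gave 0.18, and the Uty difference was not called when its probes were averaged. Sry, the remaining Y-linked gene tested and named after its value was seen, rose by 0.60 (adjusted p = 0.0289), also lost without any 1 array. Xist, Ddx3y and Eif2s3y were above background on all 4 of these arrays, with more Xist and less of the other two in Trsp-RIPKO. Their part in the other differences was not tested.

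Islets of Trsp-RIPKO and TrspFF differed at many genes. Of the 18949 genes, 3606 were higher in Trsp-RIPKO (19.0%) and 3354 were lower (17.7%). Among the 17634 genes above background on all 4 arrays, 6433 were called (36.5%), 3174 higher and 3259 lower. The SD across these genes was 0.167 between the TrspFF arrays and 0.206 between the Trsp-RIPKO arrays, and 0.449 to 0.49 between an array of one group and an array of the other. Large changes were mostly rises: 837 called genes were higher by at least 1 log2 unit and 104 were lower by as much. Among genes above background on all 4 arrays these counts were 522 and 60. In 5993 genes (31.6%) the arrays of 1 group differed by more than the group means did, and none of these genes was called. Leaving out TrspFF 1 gave 728 higher and 162 lower calls, against 1082 and 294 without TrspFF 2, 1627 and 1276 without Trsp-RIPKO 1, and 1052 and 519 without Trsp-RIPKO 2. Calls that held numbered 562 higher (2.97% of genes) and 138 lower (0.728%).

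**Figure D1:**
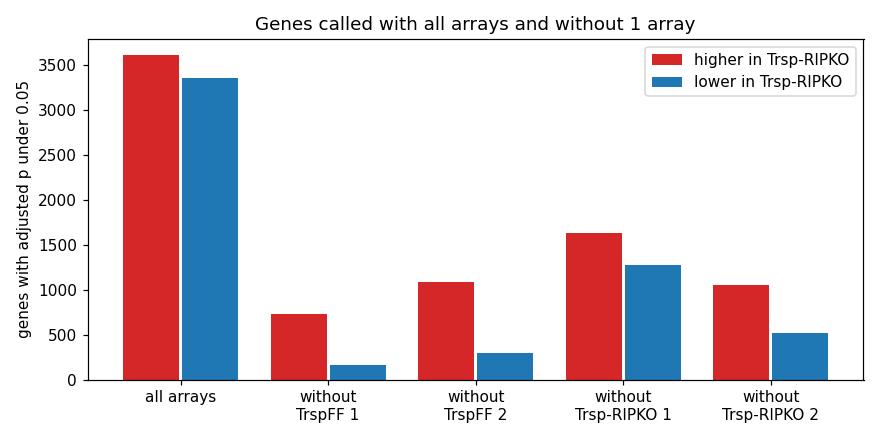
Number of genes called at adjusted p under 0.05 (vertical axis) with all arrays and without each of the 4 arrays in turn (horizontal axis); red bars are genes higher and blue bars genes lower in Trsp-RIPKO. The counts fall from 3606 higher and 3354 lower to 728 and 162 without TrspFF 1, the lowest pair.

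The split between rises and falls depended on the scaling and on the level of the gene. With the 75th percentile as the reference 51.8% of calls were rises, against 21.7% with the array median and 26.2% with the spike-in controls, which move the median of all genes by -0.24 and -0.23. With no filter on dim probes the share was 68.8%. Of 10 equal groups of genes ordered by level, the dimmest had a median difference of 0.34 and the brightest one of -0.12, with 334 genes higher and 576 lower in the brightest. Small falls of abundant genes and small rises of dim genes are therefore to be read beside this value. The part of the lower spike-in slope of the Trsp-RIPKO arrays in this dependence on level was not tested.

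**Figure D2:**
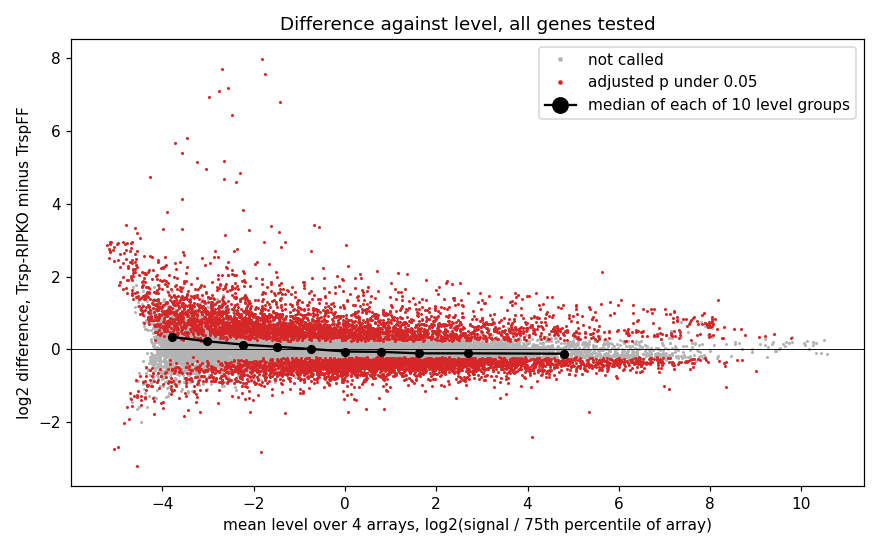
Difference between groups (vertical axis, log2, Trsp-RIPKO minus TrspFF) against the mean level over the 4 arrays (horizontal axis, log2 relative to each array's 75th percentile) for the 18949 genes, red where called. The black line joins the medians of 10 equal groups of genes ordered by level and runs from 0.34 at the dimmest to -0.12 at the brightest.

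Of the 12 largest rises that held, among named genes above background on all 4 arrays, 11 are described: Grifin, Arhgap36, Cck, Dmbt1, Prap1, Pdyn, Fkbp11, Aldh1a3, Reg1, Prss1 and Cela1. Grifin, a galectin-related gene best known from the lens, read -4.31 and -3.97 in TrspFF and -0.24 and -0.37 in Trsp-RIPKO. It rose by 3.83 ± 0.132, or 14.22-fold (adjusted p = 0.000611). Arhgap36, which acts on protein kinase A and hedgehog signalling, read -2.31 and -2.46 in TrspFF and 1.01 and 1.04 in Trsp-RIPKO, a rise of 3.41 ± 0.141. Both genes passed from well below to about or above the 75th percentile, and the groups did not overlap, as in 77.5% of all genes tested. The neuropeptide genes Cck, for cholecystokinin, and Pdyn, for prodynorphin, rose by 3.38 ± 0.141 and 2.96 ± 0.138. Cck read -3.22 and -3.38 against 0.19 and -0.04, and Pdyn read -2.82 and -2.76 against 0.04 and 0.30. Aldh1a3, a retinaldehyde dehydrogenase used as a marker of dedifferentiated beta cells, read -1.49 and -1.34 against 1.45 and 1.44, a rise of 2.86 ± 0.0848. Fkbp11, an endoplasmic reticulum prolyl isomerase of secretory cells, rose by 2.96 ± 0.242, and its Trsp-RIPKO arrays, at -0.03 and -0.55, lay about as far apart as those of Cela1. The secreted or exocrine genes Dmbt1, Prap1, Reg1, Prss1 and Cela1 rose by 3.37, 3.28, 2.40, 2.36 and 2.29. A second probe for Prss1, the gene of a trypsinogen, gave 3.09.

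The 12 largest falls that held were Abhd17a, Cox6a2, Ghrl, Mt2, T2, Cish, Celsr1, Kcnj5, Pianp, Ddx3y, Slc28a2 and Ndufaf3. Abhd17a, a depalmitoylase, read -0.39 and -0.48 in TrspFF and -3.04 and -3.45 in Trsp-RIPKO, and fell by 2.81 ± 0.187 on the log2 scale. Its second probe gave -3.57. Abhd17a was nonetheless 2.23 higher in Trsp-RIPKO than in Trsp-Ins1KO (adjusted p = 0.00206). Cox6a2, a subunit of cytochrome c oxidase found in muscle and in beta cells, read 5.32 and 5.30 against 2.92 and 2.89, a fall of 5.31-fold (difference -2.41 ± 0.0646, adjusted p = 0.000455). Kcnj5, a potassium channel gene, read 0.95 and 0.94 against -0.46 and -0.42, and Slc28a2, a nucleoside transporter gene, read -1.48 and -1.38 against -2.82 and -2.69. Celsr1, a cadherin of planar cell polarity, differed by -1.39 ± 0.0798 and Pianp by -1.37 ± 0.0783. Ndufaf3, an assembly factor of respiratory complex I, read 0.76 and 0.58 in TrspFF and -0.54 and -0.60 in Trsp-RIPKO. T2 differed by -1.64 ± 0.0788.

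**Figure D3:**
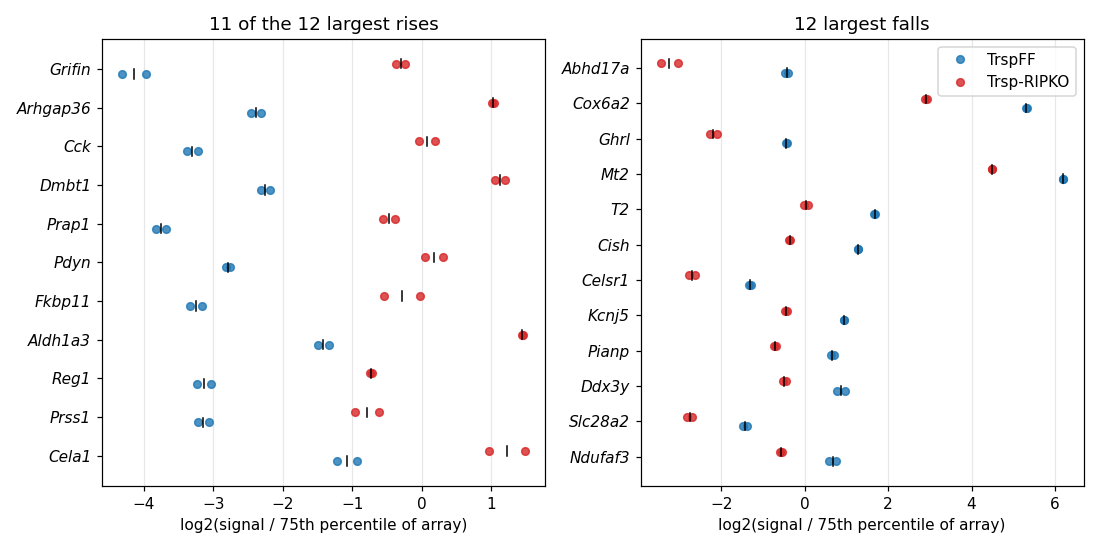
Level on each of the 4 arrays (horizontal axis, log2 relative to the array's 75th percentile) of 11 of the 12 largest rises (left) and 12 largest falls (right) that held. Blue points are TrspFF, red points Trsp-RIPKO and black ticks group means (n = 2). The means differ by up to 3.83 among the rises (Grifin) and by up to -2.81 among the falls (Abhd17a).

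Selenoprotein genes were mostly lower. Of 22 tested, 13 fell and 2 rose, beside 17.7% and 19.0% of all genes. Their median difference was -0.35, against -0.001 over all genes and -0.12 in the brightest of the 10 level groups. Without 1 array between 2 and 5 fell, fewest without TrspFF 1. Gpx4, the peroxidase that reduces lipid hydroperoxides in membranes, read 4.38 and 4.30 in TrspFF and 3.57 and 3.53 in Trsp-RIPKO, a fall of 1.73-fold (difference -0.79 ± 0.0784, adjusted p = 0.00567). Selenoh, a nuclear selenoprotein, read 1.23 and 1.26 against 0.48 and 0.36. Both calls held. Gpx1, the abundant cytosolic peroxidase, read 3.59 and 3.54 against 2.95 and 2.70, and its call was lost without either TrspFF array (adjusted p up to 0.0706). Selenot, of the endoplasmic reticulum, differed by -1.04 ± 0.125, was lost without TrspFF 1 (adjusted p = 0.0563), and a second probe gave -0.33. Gpx2, the gastrointestinal glutathione peroxidase, went the other way, from 1.53 and 1.46 to 2.37 and 2.41, and held. None of the 3 thioredoxin reductase genes was called. Of the 13 genes for making and inserting selenocysteine, none rose and 1 fell, both smaller shares than those of all genes. Gpx4 and Selenoh differed between Trsp-RIPKO and Trsp-Ins1KO by 0.09 and 0.10 (adjusted p = 0.384 and 0.32), and Gpx2 was lower in Trsp-RIPKO by a difference of -1.12 (adjusted p = 0.00106).

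Metallothioneins bind zinc and copper and are induced by metals, glucocorticoids and oxidants. Mt2 read 6.19 and 6.20 in TrspFF and 4.49 and 4.48 in Trsp-RIPKO, a fall of 3.28-fold (difference -1.71 ± 0.0627, adjusted p = 0.000674). Its neighbour Mt1 read 7.50 and 7.49 against 6.44 and 6.53, a fall of 2.01-fold. Both falls held. Mt3, the third tested and named after its value was seen, rose by 0.48 (adjusted p = 0.0131), a call lost without any 1 array. The 300-base windows around the starts of these genes are shown because the pair moved together. Sequences here and below are from RefSeq (GRCm38.p6), 5′ to 3′ on the gene's strand, at chr8:94178839-94179138 (plus strand) for Mt1 and chr8:94172368-94172667 (plus strand) for Mt2, with the core of the metal response element, TGCACNC or TGCGCNC on either strand, in capitals.
Mt1: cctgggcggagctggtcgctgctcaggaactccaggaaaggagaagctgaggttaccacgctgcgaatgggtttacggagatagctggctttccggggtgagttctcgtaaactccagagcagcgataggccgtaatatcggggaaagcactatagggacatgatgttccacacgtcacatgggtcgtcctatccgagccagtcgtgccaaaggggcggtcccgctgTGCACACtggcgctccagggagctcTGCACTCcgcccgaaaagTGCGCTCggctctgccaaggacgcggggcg
Mt2: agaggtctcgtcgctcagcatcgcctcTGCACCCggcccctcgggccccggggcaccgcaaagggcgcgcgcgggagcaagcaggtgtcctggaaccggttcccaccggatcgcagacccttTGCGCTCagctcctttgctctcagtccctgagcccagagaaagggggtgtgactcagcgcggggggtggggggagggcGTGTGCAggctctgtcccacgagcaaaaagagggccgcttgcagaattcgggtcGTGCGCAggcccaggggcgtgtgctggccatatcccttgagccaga
The core occurred 3 times in the Mt1 window and 4 times in the Mt2 window. At least 1 match is found in 25.7% of 32851 mouse promoter windows and at least 3 in 1.97%.

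Genes activated by NRF2, the transcription factor that answers electrophiles, moved both ways. Of 30 targets tested 11 rose and 5 fell, beside 19.0% and 17.7% of all genes, so the falls were near the share of all genes. The median of the targets was 0.10, and it became -0.14 with median scaling and -0.13 with spike-in scaling. Without 1 array 4 to 7 rose. Among the 15 detoxification genes 8 rose and 2 fell. Hmox1, which degrades heme, read -1.20 and -1.39 in TrspFF and 0.35 and 0.43 in Trsp-RIPKO, a rise of 1.68 ± 0.106 that held, while a second probe gave 0.09. The glutathione transferase genes Gstp2 and Gstm2 rose by 0.94 and 0.87 and held, with second probes at 0.71 and 0.52. Gstm3 rose by 0.98 and was lost without Trsp-RIPKO 2 (adjusted p = 0.0509). Nfe2l2, the gene of NRF2, differed by -0.49 ± 0.0647 and was lost without either TrspFF array (adjusted p up to 0.066). Outside the NRF2 list, Sod3, the extracellular superoxide dismutase, rose by 0.86 ± 0.0737 and held. Msrb3, a methionine sulfoxide reductase, rose by 1.01 and was lost without TrspFF 2 or Trsp-RIPKO 2 (adjusted p up to 0.0813). Hmox1, Gstp2 and Gstm2 were lower in Trsp-RIPKO than in Trsp-Ins1KO, by differences of -0.85, -0.87 and -0.94 (adjusted p = 0.00486, 0.00199 and 0.002).

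Heat shock chaperones, which refold damaged proteins, were called lower more often than all genes were (17.7%). Of 16 tested 9 fell and none rose, with a median of -0.30; between 1 and 4 fell without 1 array. Hspa1a, the inducible member of the HSP70 family, read -0.76 and -0.84 in TrspFF and -1.96 and -1.98 in Trsp-RIPKO, a fall of 2.25-fold (difference -1.17 ± 0.0963, adjusted p = 0.00402) that held. The small heat shock protein gene Hspb1 read 4.03 and 4.05 against 3.45 and 3.39. Hsph1 and Dnajb1, cofactors of HSP70, differed by -0.70 and -0.55. Hspb1 and Dnajb1 lost the call in all fits but the one without Trsp-RIPKO 1 (adjusted p up to 0.0732 and 0.0655), and Hsph1 without any 1 of the 4 arrays (0.0854), with a second Hsph1 probe at 0.05. The windows of Hspa1a (chr17:34972107-34972406, minus strand) and Hspb1 (chr5:135887669-135887968, plus strand) follow, as examples that hold the heat shock element core GAANNTTC, in capitals.
Hspa1a: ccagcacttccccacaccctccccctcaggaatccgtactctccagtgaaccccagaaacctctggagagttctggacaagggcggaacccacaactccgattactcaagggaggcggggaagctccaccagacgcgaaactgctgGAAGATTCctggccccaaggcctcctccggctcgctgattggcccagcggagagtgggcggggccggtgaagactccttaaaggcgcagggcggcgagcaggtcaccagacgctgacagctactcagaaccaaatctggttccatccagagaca
Hspb1: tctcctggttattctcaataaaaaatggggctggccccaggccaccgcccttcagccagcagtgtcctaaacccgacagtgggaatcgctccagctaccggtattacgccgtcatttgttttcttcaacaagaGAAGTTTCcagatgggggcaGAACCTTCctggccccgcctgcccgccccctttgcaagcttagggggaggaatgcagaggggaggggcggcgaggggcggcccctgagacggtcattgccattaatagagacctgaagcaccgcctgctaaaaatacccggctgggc
There was 1 match in Hspa1a and 2 in Hspb1, 1 in each window of Hsph1 and 0 in those of Dnajb1, and 7.86% of all windows hold at least 1.

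In the unfolded protein response 4 of 32 genes rose and 4 fell, with 1 to 3 rises without 1 array. Both counts are smaller shares than the 19.0% and 17.7% of all genes that rose and fell. Hspa5, the main chaperone of the endoplasmic reticulum, read 7.22 and 7.25 in TrspFF and 7.25 and 7.24 in Trsp-RIPKO (difference 0.01, adjusted p = 0.918). Derl3, a degradation factor, rose by 0.90 and held. Hyou1 differed by 0.68, Atf6 by -0.52 and Ero1b by -0.50. Hyou1 and Ero1b lost the call in all fits but the one without Trsp-RIPKO 1 and Atf6 without any 1 array (adjusted p up to 0.0941, 0.0992 and 0.108). In the integrated stress response, the programme driven by ATF4, 14 of 28 genes rose and 1 fell, with a median of 0.25; between 3 and 7 rose without 1 array, and the median was 0.01 with median scaling and 0.02 with spike-in scaling. Sesn2, an inhibitor of mTORC1 signalling, read 1.71 and 1.69 against 2.42 and 2.43 and held. Gpt2, a mitochondrial alanine transaminase, read -1.69 and -1.52 against -0.71 and -0.68 and held. Trib3 rose by 0.84 (lost without TrspFF 1, adjusted p = 0.0535), and Psat1, of serine synthesis, by 0.72 (lost without any 1 array, adjusted p up to 0.0687). Atf4 itself differed by -0.02 (adjusted p = 0.83), and the 1 fall was Ddit3, at -0.42, which was lost without any 1 array (adjusted p up to 0.172). Trib3 and Sesn2 were lower in Trsp-RIPKO than in Trsp-Ins1KO by differences of -1.36 and -0.70 (adjusted p = 0.00134 and 0.00244).

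Genes of mitochondrial protein synthesis and respiration were lower by small amounts. Of 75 mitochondrial ribosome genes 45 fell and 1 rose (median -0.30), with 22 of 29 small-subunit and 23 of 46 large-subunit genes falling. Over all genes 17.7% fell and 19.0% rose. Mrps33, of the small subunit, read 4.80 and 4.77 in TrspFF and 4.05 and 3.99 in Trsp-RIPKO, and its fall of 0.77 on the log2 scale held, though a second probe gave 0.05. Mrpl28 differed by -0.97, Mrpl37 by -0.73 and Mrps11 by -0.67. Mrpl28 and Mrpl37 were lost in all fits but the one without Trsp-RIPKO 1 and Mrps11 without either TrspFF array (adjusted p up to 0.0608, 0.114 and 0.0623). In the tricarboxylic acid cycle 11 of 22 genes fell and none rose (median -0.27). Fh1, fumarase, read 3.64 and 3.68 against 3.07 and 2.99, and Sucla2 read 2.12 and 2.09 against 1.59 and 1.65. Fh1 was lost without TrspFF 1 (adjusted p = 0.0506) and Sucla2 without either TrspFF array (adjusted p up to 0.0713). Idh3b and Got2 differed by -0.65 and -0.64 and were lost in all fits but the one without Trsp-RIPKO 1 (adjusted p up to 0.0898 and 0.0928).

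In the respiratory chain 42 of 76 genes fell and 1 rose (median -0.29), beside 17.7% and 19.0% of all genes. The falls included 20 of 36 genes of complex I and 9 of 12 of complex IV. Besides Cox6a2, the largest called differences were -0.82 for Ndufa11, -0.73 for Ndufs8 and -0.66 for Ndufb8. Ndufa11 was lost without TrspFF 1, Ndufb8 without either TrspFF array, and Ndufs8 in all fits but the one without Trsp-RIPKO 1 (adjusted p up to 0.0566, 0.056 and 0.114). Cytosolic ribosome genes moved by a similar size: 39 of 75 fell and 3 rose (median -0.23). Rps2 differed by -0.72 and Rpl28 by -0.58, whereas Rps21 rose from 5.05 and 5.01 to 5.71 and 5.58. Rps2 was lost in all fits but the one without Trsp-RIPKO 1, Rpl28 without any 1 array and Rps21 without either TrspFF array (adjusted p up to 0.109, 0.081 and 0.0584). Without 1 array the falls numbered 1 to 11 in the respiratory chain, 1 to 13 in the mitochondrial ribosome, 0 to 4 in the tricarboxylic acid cycle and 0 to 6 in the cytosolic ribosome. The medians of these lists, -0.23 to -0.30, stand beside the -0.12 of the brightest of the 10 level groups, and the part of level in them was not tested.

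**Figure D4:**
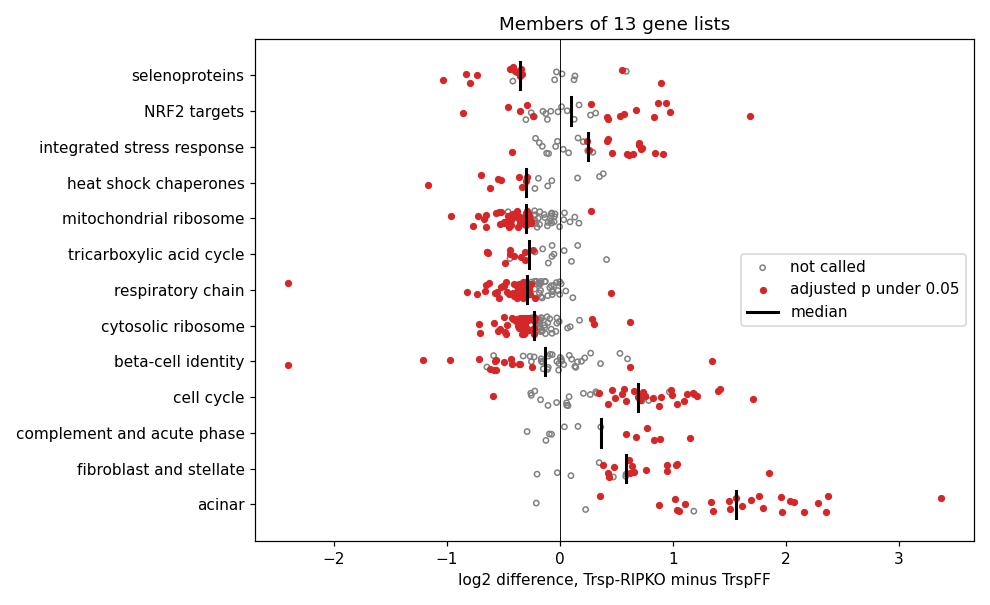
Difference between groups (horizontal axis, log2, Trsp-RIPKO minus TrspFF) of each tested member of 13 gene lists (rows); filled red points were called, open grey points were not, and black bars are medians. The medians run from -0.35 in selenoproteins to 1.56 in acinar genes.

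Hormone genes of the main islet cells changed little, and those of the minor islet cells more. None of the 3 insulin and amylin genes was called: Ins2 read 10.12 and 10.25 in TrspFF and 10.27 and 10.35 in Trsp-RIPKO, and Iapp read 9.39 and 9.54 against 9.38 and 9.44. Gcg, for glucagon, differed by -0.21 (adjusted p = 0.0817), and Sst, for somatostatin, by -0.27 (adjusted p = 0.0455, lost without any 1 array, adjusted p up to 0.196). Ppy, for pancreatic polypeptide, read 8.87 and 8.87 against 7.78 and 7.86, a fall of 2.07-fold that held. Pyy, for peptide YY, read 7.66 and 7.62 against 6.55 and 6.54, and Ghrl, for ghrelin, -0.43 and -0.45 against -2.09 and -2.28. Npy, a related peptide, read 0.77 and 0.67 against -0.31 and -0.31. Vgf, a granule protein precursor, rose from 1.20 and 1.22 to 2.28 and 2.29. The falls of Ppy, Pyy, Ghrl and Npy and the rises of Vgf, Cck and Pdyn all held. Vgf and Pyy were lower in Trsp-RIPKO than in Trsp-Ins1KO (differences -1.35 and -1.08, adjusted p = 0.000978 and 0.00144).

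**Figure D5:**
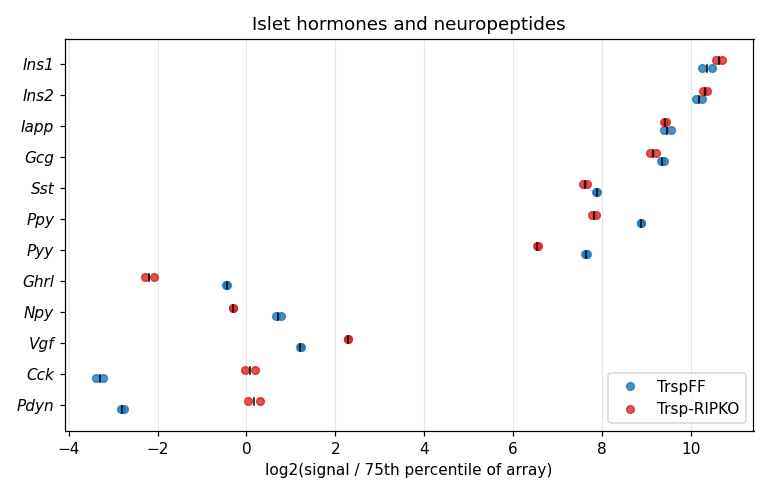
Level on each of the 4 arrays (horizontal axis, log2 relative to the array's 75th percentile) of 12 islet hormone and neuropeptide genes; blue is TrspFF, red is Trsp-RIPKO and black ticks are group means (n = 2). Insulin and amylin genes lie between 9.38 and 10.70 on all 4 arrays, while Ppy, Pyy, Ghrl and Npy are lower and Vgf, Cck and Pdyn higher in Trsp-RIPKO.

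Of 50 beta-cell identity genes 15 fell and 2 rose, beside 17.7% and 19.0% of all genes. Among the 23 genes of glucose sensing and maturity 12 fell and none rose. Of the 20 transcription factor genes 1 fell and 1 rose. Ucn3, a marker of mature beta cells, read 4.18 and 4.09 in TrspFF and 2.98 and 2.87 in Trsp-RIPKO, and Trpm5, a cation channel gene, read 3.24 and 3.04 against 2.21 and 2.11. Both falls held. Pam, which amidates peptide hormones, rose from 1.68 and 1.74 to 2.97 and 3.15, or 2.54-fold, and held. Slc2a2, the glucose transporter of mouse beta cells, differed by -0.62 (lost without TrspFF 1, adjusted p = 0.0626) and the transcription factor gene Nkx6-1 by -0.57 (lost in all fits but the one without Trsp-RIPKO 1, adjusted p up to 0.0698). Pdx1 and Mafa, transcription factors of the insulin gene, differed by 0.19 and 0.16 (adjusted p = 0.118 and 0.187), and both differences changed sign under median and spike-in scaling, and that of Mafa also under normexp. Without 1 array 3 to 10 of the identity genes fell.

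Receptors and growth signals changed at single genes. Of 20 islet receptors 3 rose and 3 fell, with 1 to 3 rises and 1 fall without 1 array, shares near the 19.0% and 17.7% of all genes. Gcgr, the glucagon receptor gene, read 3.92 and 3.96 in TrspFF and 3.14 and 3.10 in Trsp-RIPKO and held, and Gabbr2, a GABA receptor subunit gene, rose from -0.74 and -0.70 to 0.20 and 0.28 and held. Ghsr, the ghrelin receptor gene, rose by 0.67 (lost without TrspFF 1, adjusted p = 0.0593), and Gpr119 differed by -0.43 (lost without any 1 array, adjusted p up to 0.207). In insulin and IGF signalling 8 of 21 genes rose and 1 fell, with 2 to 5 rises without 1 array. Igfbp4 and Igfbp3, which bind insulin-like growth factors, rose by 1.57 and 1.01, and Insr, the insulin receptor gene, and Pik3ca, a kinase subunit gene, rose by 0.98 and 0.97. Other probes for Insr gave 0.36 and 0.49. Among the 19 insulin and IGF signalling genes above background on all 4 arrays 7 rose and 1 fell, beside 19.0% and 17.7% of all genes. Igfbp4 and Pik3ca were lost without TrspFF 1, Igfbp3 without either TrspFF array, and Insr without TrspFF 2 or Trsp-RIPKO 2 (adjusted p up to 0.06, 0.0546, 0.0691 and 0.0585). Among 20 Wnt and Notch genes 5 rose and 2 fell, beside 19.0% and 17.7% of all genes, with 1 or 2 rises without 1 array. Notch1 and its ligand Jag1 rose by 1.37 and 0.94, Fzd1 by 0.66, and Wnt4 differed by -0.61. Jag1 was lost without Trsp-RIPKO 2, Wnt4 in all fits but the one without Trsp-RIPKO 1, and Notch1 and Fzd1 without any 1 array (adjusted p up to 0.0571, 0.0906, 0.0744 and 0.116).

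STAT5, activated by prolactin and growth hormone receptors, has a list of 17 tested genes here, of which 6 rose and 4 fell, and 2 to 4 rose without 1 array. Cish, a feedback inhibitor of these receptors, read 1.27 and 1.27 in TrspFF and -0.34 and -0.38 in Trsp-RIPKO (difference -1.63 ± 0.0655, adjusted p = 0.000867). Bcl6, a transcriptional repressor that STAT5 represses in several cell types, read 0.13 and 0.18 against 1.08 and 1.17, and both calls held. Neb and Birc5 rose by 1.82 and 1.18; Neb was lost without TrspFF 1 or Trsp-RIPKO 2 and Birc5 in all fits but the one without Trsp-RIPKO 1 (adjusted p up to 0.0543 and 0.0571). Among the 15 genes of the list above background on all 4 arrays 5 rose and 4 fell, beside 19.0% and 17.7% of all genes. Tph1, which makes serotonin, was not well above background in TrspFF and was at least 1.68-fold higher in Trsp-RIPKO. Cish and Bcl6 also differed between the Cre lines, with Cish lower (difference -0.90, adjusted p = 0.00153) and Bcl6 higher (0.82, adjusted p = 0.00216) in Trsp-RIPKO than in Trsp-Ins1KO. The Cish window (chr9:107296409-107296708, plus strand) is shown because Cish had the largest fall of the list, with the STAT core TTCNNNGAA in capitals.
Cish: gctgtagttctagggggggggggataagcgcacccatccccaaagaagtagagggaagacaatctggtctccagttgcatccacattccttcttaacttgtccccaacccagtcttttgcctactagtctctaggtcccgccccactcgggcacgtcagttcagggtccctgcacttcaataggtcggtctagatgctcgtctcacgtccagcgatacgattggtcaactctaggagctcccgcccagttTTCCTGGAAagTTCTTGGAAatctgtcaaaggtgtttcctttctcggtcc
It holds 2 matches, and 8.3% of all windows hold at least 1.

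Most cell cycle genes were higher. Of 47 tested 28 rose and 1 fell (median 0.69), among them 15 of 18 mitosis genes and 9 of 18 replication genes, and 6 to 14 rose without 1 array. The mitosis genes Top2a and Bub1 were not above background in TrspFF and entered through the Trsp-RIPKO arrays alone. Among genes above background on all 4 arrays, 26 of 45 in the list and 13 of 16 mitosis genes rose. Of 11 regulators of G1 4 rose and 1 fell (median 0.08). The summed signal of the whole list, in multiples of the 75th percentile, was not higher: 80.3 and 78.4 in TrspFF against 79.3 and 75.7 in Trsp-RIPKO. Its parts differed. Mitosis genes summed to 4.7 and 4.5 in TrspFF against 9.2 and 9.2 in Trsp-RIPKO. Replication genes gave 14.6 and 14.3 against 18.4 and 18.2, and regulators of G1 gave 61.0 and 59.6 against 51.8 and 48.3. Mki67, a marker of proliferating cells, read -0.40 and -0.32 in TrspFF and 1.34 and 1.37 in Trsp-RIPKO, a rise of 3.27-fold that held, with a second probe at 1.17. Uhrf1, Cdc20 and Cdt1 rose by 1.40, 1.21 and 1.19. Uhrf1 was lost without Trsp-RIPKO 1 or Trsp-RIPKO 2, Cdc20 without either TrspFF array, and Cdt1 in all fits but the one without Trsp-RIPKO 1 (adjusted p up to 0.0574, 0.0552 and 0.0592). Of 25 DNA repair genes 5 rose and 5 fell, near the 19.0% and 17.7% of all genes, with 1 or 2 rises without 1 array. Fanca, of the Fanconi anaemia complex, read -3.96 and -4.12 against -2.59 and -2.55 and held, whereas Lig4, of end joining, differed by -0.72 (lost without TrspFF 1, adjusted p = 0.0538). Rad54l, of homologous recombination, rose by 0.92 and was lost without TrspFF 1, Trsp-RIPKO 1 or Trsp-RIPKO 2 (adjusted p up to 0.0985). Which cells carried these transcripts was not tested.

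Genes of exocrine pancreas were higher. Of 27 acinar genes 24 rose and none fell (median 1.56), and 20 or 21 rose without 1 array. Among the 24 acinar genes above background on all 4 arrays 22 rose, and the other 3 entered through the Trsp-RIPKO arrays alone. The summed signal of the list, in multiples of the 75th percentile, was 20.3 and 20.7 in TrspFF and 39.0 and 41.3 in Trsp-RIPKO. Dmbt1 read -2.32 and -2.19 in TrspFF and 1.19 and 1.05 in Trsp-RIPKO, and Spink1, a trypsin inhibitor gene, read -3.30 and -3.32 against -1.23 and -1.06. Rbpjl, a transcription factor of acinar cells, rose by 1.80 and held, while Bhlha15, another, differed by -0.21 (adjusted p = 0.121). Among 16 duct genes 6 rose and 2 fell, with 2 or 3 rises without 1 array. Over all genes 19.0% rose and 17.7% fell. Spp1 and Cftr, genes of duct cells, rose by 1.84 and 1.56 and held. Tff3 rose by 2.53 and Krt7 differed by -0.56, both lost in all fits but the one without Trsp-RIPKO 1 (adjusted p up to 0.053 and 0.149), and Krt19 differed by 0.31 (adjusted p = 0.161). Of 32 intestinal epithelium genes tested, 18 were above background on both arrays of Trsp-RIPKO only, and of the 13 above background on all 4 arrays 6 rose and 1 fell. The summed signal of those 13 genes was 14.5 and 14.6 in TrspFF and 17.6 and 17.9 in Trsp-RIPKO. The part of exocrine, duct or intestinal RNA in the other results was not tested.

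Stromal genes and some complement genes were also higher. Of 21 fibroblast and stellate genes 14 rose and none fell (median 0.59; 6 to 8 rises without 1 array), with a summed signal of 66.2 and 70.5 in TrspFF and 77.9 and 76.9 in Trsp-RIPKO. Among the 19 of these genes above background on all 4 arrays 13 rose. The median of the 21 genes was 0.35 with median scaling, where 9 rose and 1 fell. With spike-in scaling it was 0.36, where 6 rose and none fell. Fn1, for fibronectin, read -3.89 and -3.79 against -1.94 and -2.04, a rise of 3.60-fold. Col1a1, for collagen, read -0.41 and -0.29 against 0.60 and 0.62. Thy1 and Bgn rose by 1.04 and 0.95, and all 4 calls held. Of 13 complement and acute phase genes 6 rose and none fell (median 0.36; 2 to 4 rises without 1 array). That median was 0.12 with median scaling and 0.13 with spike-in scaling, and it stands beside the 0.34 of the dimmest of the 10 level groups. Among the 12 complement and acute phase genes above background on all 4 arrays 5 rose. C4b read 0.89 and 0.92 against 1.81 and 1.78, and C3, the central component, read 1.43 and 1.44 against 2.25 and 2.28 with a second probe at 0.84. Both held. Cfb and C1ra rose by 0.77 and 0.67; Cfb was lost without TrspFF 1, Trsp-RIPKO 1 or Trsp-RIPKO 2 and C1ra without either TrspFF array (adjusted p up to 0.076 and 0.0533). In the interferon response 8 of 32 genes rose and 3 fell, beside 19.0% and 17.7% of all genes, with 1 to 3 rises without 1 array. Among the 31 interferon response genes above background on all 4 arrays 7 rose and 3 fell. Iigp1, a GTPase against intracellular pathogens, rose from -1.30 and -1.27 to 0.15 and 0.07 and held. Gbp3 and Zbp1 rose by 0.82 and 0.78 and Ifi35 differed by -0.47; Gbp3 was lost without TrspFF 1, Zbp1 without either TrspFF array and Ifi35 without any 1 array (adjusted p up to 0.052, 0.0615 and 0.166). Col1a1, Fn1 and C4b were also higher in Trsp-RIPKO than in Trsp-Ins1KO, by 1.91, 2.37 and 2.05 (adjusted p = 0.000803, 0.000486 and 0.00028). Over all genes, 38.6% differed between those Cre lines.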

How the data were processed

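The deposited scanner files hold 1 single-colour array each; per the file headers, Feature Extraction 10.7.3.1 made the processed signal intensity, which is background-subtracted. The authors' deposited table holds log2 values with gene centring and an unstated scale, and was used only as an alternative. Spots of a probe were averaged, control spots left out, and log2 intensity minus the array's 75th percentile taken. Of 39426 probes, 26053 (66.1%) were named through RefSeq accessions; the others keep the file's name. A gene is its brightest probe, by mean level over all 6 arrays, among those well above background on both arrays of TrspFF or of Trsp-RIPKO. limma 3.58.1 (R 4.3.3) fitted 1 mean per group over all 6 arrays, two-sided. On simulated data the fit was tested with known changes. Members and lists were chosen with earlier results of these data known. Named genes are the 12 largest rises and falls that held without each array, up to 4 largest called members per list described, and defining members; 3 genes that this rule picks are not reported here. Alternatives were other scalings, filters, background, probe rule, variance, arrays left out, replicate block and the authors' table. A fold given as "at least" sets the bright group against the dimmest signal that counts as above background. With 2 arrays per group, their number limits precision. Python 3.11.15 with pandas 2.3.3 made the tables.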

Additional observations from a re-analysis of the deposited data

Results flagged for a closer look

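Of the 23 genes described among the largest changes, 13 differed between Trsp-RIPKO and Trsp-Ins1KO by at least 1 log2 unit at an adjusted p under 0.05 (limma, same fit). Trsp-RIPKO was higher for Prap1 by 3.44, Arhgap36 by 3.39, Dmbt1 by 3.19, Fkbp11 by 2.50, Cela1 by 2.30, Abhd17a by 2.23, Cck by 2.01, Grifin by 1.89 and Pdyn by 1.46. It was lower for Cox6a2 (-1.77), Kcnj5 (-1.58), Pianp (-1.29) and Ddx3y (-1.12). Among the spike-in control probes, which served only as an alternative scaling, 1 of 10 read 2.01 higher in Trsp-RIPKO than in TrspFF: its median over 32 spots was 3.59 and 3.70 in TrspFF and 5.85 and 5.48 in Trsp-RIPKO. As few as 0.34 of its spots on a TrspFF array were well above background, so the TrspFF value is not a reliable level. The other 9 differed by -0.15 to 0.11, and for 2 of them at least 1 array of each group had no spot well above background.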

How the results depend on the processing

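Leaving out 1 of the 6 arrays gave 728 to 4107 higher calls and 162 to 3662 lower calls. Among genes above background on all 4 arrays of the comparison it gave 665 to 7100 calls. The upper values came only from leaving out a Trsp-Ins1KO array, and equalled those of a fit on the 4 compared arrays alone. Without any 1 of the 4 compared arrays, each of these counts was below that of the main fit. Median scaling gave 2021 higher and 7276 lower calls, spike-in scaling 1751 higher, normexp 5340 higher and, with 1851 higher and 841 lower, no filter on dim probes (1984 on all 4 arrays). Requiring at least 1 log2 unit left 837, 104 and 582. The replicate block gave 3558 higher and 3082 lower calls; deviations of arrays with the same number correlated at 0.085, so the numbers were not taken as pairs. Leaving out the lists of other cell types, sex-linked and cell cycle genes, chosen after seeing the data, left 3490 higher and 3335 lower. A filter changes which genes are tested, with 32494 tested under no filter on dim probes. A left-out array kept the same 18949 genes and left fewer arrays to estimate the spread. Median and spike-in scaling moved the median of all genes by -0.24 and -0.23. The cause of these changes was not otherwise tested.

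With the authors' columns under their own names, which compares Trsp-RIPKO with the Trsp-Ins1KO scanner files, differences turned sign for Reg1 (-0.20), Abhd17a (2.23), Celsr1 (0.41), Gpx4 (0.09), Selenoh (0.10), Selenot (0.28), Gpx1 (0.42), Gpx2 (-1.12), Mt1 (0.23), Sod3 (-0.39), Hmox1 (-0.85), Gstp2 (-0.87), Gstm2 (-0.94), Gstm3 (-0.78), Nfe2l2 (0.03), Derl3 (-0.45), Hyou1 (-0.42), Ero1b (0.37), Hspa5 (-0.04), Gpt2 (-0.37), Trib3 (-1.36), Sesn2 (-0.70), Psat1 (-0.57), Mrps33 (0.11), Idh3b (0.05), Ndufs8 (0.21), Rpl28 (0.01), Ins1 (-0.71), Ins2 (-0.74), Pdx1 (-0.45), Mafa (-0.53), Slc2a2 (0.10), Pam (-0.09), Trpm5 (0.72), Vgf (-1.35), Gcg (0.34), Sst (0.51), Gpr119 (0.66), Igfbp3 (-0.44), Lig4 (0.57) and Bhlha15 (0.08). With columns assigned by scanner file no named gene did. Among genes not called, median scaling turned Hspa5 (-0.23), Ins2 (-0.12), Pdx1 (-0.05) and Mafa (-0.08), spike-in scaling Hspa5 (-0.22), Ins2 (-0.11), Pdx1 (-0.04) and Mafa (-0.07), normexp Hspa5 (-0.10), Atf4 (0.32), Iapp (0.10) and Mafa (-0.09), and quantile normalization Hspa5 (-0.09) and Atf4 (0.03). Without 1 array Hspa5 ranged from -0.01 to 0.03, Atf4 from -0.07 to 0.02 and Iapp from -0.13 to 0.02. Signal over background limits the dim probes.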
